A study of Mus musculus with 4 samples.

Results

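A set of interferon response genes was followed through the cells of the mouse ventral prostate: Stat2, Irf7 and Irf9, which encode transcription factors of the interferon pathway, and Rsad2, Ifit1, Ifit3, Mx1, Bst2 and Isg15, which encode its antiviral products. They were taken by symbol and are 9 of the 17896 genes in the 4 count tables, and each table lists all 9. Single-cell RNA sequencing with 3′ tags and unique molecular identifiers (UMIs, which count molecules rather than reads) was made of 2 te2 mice and 2 sham mice. All 4 animals were C57BL6j with genotype wt, and the ventral lobes were collected 2 weeks after implantation. The series text speaks of hormone pellets, and what the sham mice received is not stated here. The sources used here give neither the meaning of the code te2 nor the ages of the mice. Each library is 1 animal, called te2 or sham replicate 1 or 2. Of 11245 cells, 8091 had at least 500 UMIs and at most 20% mitochondrial UMIs and were kept.

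Kept cells were placed in 5 classes by the share of a cell's UMIs that came from a few genes, in a set order. Luminal cells, the secretory epithelium of the lobe, had at least 10% of their UMIs from Sbp and Spink1, and numbered 392 and 485 in the te2 libraries, against 1057 and 1292 in sham. Basal cells (Krt5, Krt14 and Krt15, at least 0.2%) numbered 591 and 573 in te2 and 44 and 160 in sham. Fibroblasts (Col1a2, Col3a1 and Dcn, at least 0.3%) numbered 86 and 132 in te2 and 237 and 98 in sham. Macrophages (C1qa, C1qb and C1qc, at least 0.3%) numbered 103 and 78 in te2 and 56 and 57 in sham. Proximal cells, named after the epithelium of the ducts near the urethra (Krt4, Wfdc2 and Cxcl17, at least 0.1%), numbered 636 and 376 in te2 and 35 and 169 in sham.

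The libraries differ in depth along the same line as the treatment. Kept cells had a median of 3426.5 and 4075 UMIs in te2, against 1203.5 and 1722 in sham, and luminal cells a median of 8265.5 and 10359 in te2, against 1551 and 2455 in sham. Secreted luminal transcripts were found in every class. Luminal markers summed to 2982 and 6130 CPM (a gene's UMIs scaled to a common total per class and library) in basal cells of te2, against 35154 and 34709 CPM in sham. In the proximal class they summed to 10160 and 13124 CPM in te2, against 15946 and 21376 CPM in sham. The luminal class of te2 in turn held 1239 and 1030 CPM of proximal markers, against 22 and 38 CPM in sham. Basal cells held 1898 and 1419 CPM of them in te2, against 88 and 595 CPM in sham. Cells in no class held 1490 and 1278 CPM in te2, against 256 and 245 CPM in sham. Whether the proximal class holds the same kind of cell in te2 as in sham was not tested. The sham replicate 1 proximal class is the thinnest of the 20 class sums in cells, and 42.9% of its 35 cells lay within 1.5 times the class threshold. Pairs of libraries shared 1 to 5 cell barcodes. The part of these differences in the results below was not tested.

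Interferons are secreted by cells that sense foreign or misplaced nucleic acid. Type I interferons bind a receptor that activates the kinases JAK1 and TYK2, which phosphorylate STAT2; with IRF9 it forms part of the complex ISGF3, which binds interferon-stimulated response elements in promoters. IRF7 is itself induced and amplifies the production of type I interferon. Of the products, RSAD2 (viperin) makes a nucleotide that stops viral RNA synthesis, IFIT1 and IFIT3 bind viral RNA as a complex, MX1 is a dynamin-like GTPase, BST2 (tetherin) holds budding virions at the cell surface, and ISG15 is a ubiquitin-like modifier. Most common inbred mouse strains, C57BL/6 among them, carry a defective Mx1 allele, so an Mx1 transcript in these mice does not stand for working MX1 protein. Stat2 and Irf9 are present in resting cells and the products are mostly low until interferon acts.

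The response element is shown here because most of these genes share it. The genes that hold it also did not all change in the same direction in luminal cells of te2. Promoters of 8 of the 9 genes were matched in RefSeq sequences of build GRCm38.p6, from 250 bases before to 50 bases after the start given for each gene; for Ifit3 that start is not the first base of the RefSeq gene. This is not the build of the count tables, and Mx1 was not matched. The core GAAANNGAAA was searched on both strands, and so was the wider-spaced GAAANNNGAAA; matches may overlap. The first occurred in 6 of the 8 genes, against 3.44% of all 32851 promoters of this length, and the second in Rsad2 and Ifit3, against 2.75% of all. Neither was in the windows of Irf7 and Irf9. In the 80-base stretches below, read 5′ to 3′ along the strand of each gene, capitals mark the matches; a match on the other strand reads as TTTCNNTTTC.
Stat2, chr10:128270248-128270327, plus strand: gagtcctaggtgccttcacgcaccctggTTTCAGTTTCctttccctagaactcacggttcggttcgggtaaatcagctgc
Rsad2, chr12:26456522-26456601, minus strand: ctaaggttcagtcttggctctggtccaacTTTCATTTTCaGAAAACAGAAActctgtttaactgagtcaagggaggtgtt
Ifit1, chr19:34640759-34640838, plus strand: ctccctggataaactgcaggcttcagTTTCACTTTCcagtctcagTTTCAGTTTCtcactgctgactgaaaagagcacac
Ifit3, chr19:34583358-34583437, plus strand: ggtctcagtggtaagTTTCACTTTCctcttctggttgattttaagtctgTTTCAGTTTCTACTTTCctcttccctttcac
Bst2, chr8:71537555-71537634, minus strand: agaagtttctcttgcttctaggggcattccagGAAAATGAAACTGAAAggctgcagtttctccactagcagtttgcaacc
Isg15, chr4:156200846-156200925, minus strand: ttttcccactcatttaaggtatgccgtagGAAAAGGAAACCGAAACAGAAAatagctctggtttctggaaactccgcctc
Stat2 has 1 match, Ifit1 has 2 apart from each other, Bst2 has 2 that overlap and Isg15 has 3 that overlap. A match is a run of letters and not a measured site.

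In luminal cells, 5 of the 9 genes were lower in te2 than in sham and 1 was higher. Stat2, Irf9, Rsad2, Ifit1 and Mx1 fell, Bst2 rose, and Irf7, Ifit3 and Isg15 did not pass the test. Across the 10976 genes tested in these cells, 32.1% passed, with 14.1% lower and 18% higher. Raw counts were summed per library and tested with the quasi-likelihood test of edgeR, with Benjamini-Hochberg adjustment over all genes tested and a threshold of 0.05. CPM are scaled by TMM factors, errors beside means are SDs over the 2 libraries of a group, and errors beside log2 changes are standard errors. The median log2 change was -0.82 over the 9 genes and -0.01 over all genes.

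Among the transcription factors, Stat2 stood at 38.6 and 36.1 CPM in the te2 libraries, against 93.6 and 88.6 CPM in sham. The replicates of each group nearly coincide and the groups lie far apart. The mean was 37.4 ± 1.79 CPM in te2 and 91.1 ± 3.51 CPM in sham (n = 2 each), a log2 change of -1.29 ± 0.14 with an edgeR adjusted p of 1.48e-05. Irf9, the DNA-binding partner of STAT2, stood at 30.2 and 37.1 CPM in te2, against 54.8 and 64.8 CPM in sham. It fell by 0.82 ± 0.16 on the log2 scale (edgeR adjusted p = 0.00139), again without overlap. Irf7, the third factor, had 11.0 and 31.5 CPM in te2, against 22.3 and 29.4 CPM in sham. The 2 te2 mice lie on either side of both sham mice, and the log2 change was -0.24 ± 0.33 (edgeR adjusted p = 0.620).

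Among the products, Rsad2 and Ifit1 fell, with less even replicates than Stat2. Rsad2 had 0.581 and 7.51 CPM in te2, from 2 and 37 UMIs, against 39.5 and 12.4 CPM in sham, from 113 and 47 UMIs. Both te2 libraries lie below both sham libraries, but sham replicate 1 is 3.17 times sham replicate 2. The log2 change was -2.46 ± 0.59 (edgeR adjusted p = 0.00561), and ran from -5.36 without te2 replicate 2 to -1.46 without sham replicate 1. Ifit1 had 8.43 and 27.0 CPM in te2, against 54.5 and 43.4 CPM in sham. The groups do not overlap, and the change was -1.38 ± 0.32 (edgeR adjusted p = 0.00431), from -2.53 without te2 replicate 2 to -0.83 without te2 replicate 1. With DESeq2 in place of edgeR, neither gene passed, with adjusted p of 0.301 for Rsad2 and 0.254 for Ifit1; DESeq2 called 5.31% of genes lower, Stat2 and Irf9 among them.

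Ifit3, whose product joins that of Ifit1, had 0 and 6.70 CPM in te2, from 0 and 33 UMIs, against 6.63 and 0.529 CPM in sham, from 19 and 2 UMIs. One mouse of each group carries nearly all of it, and the log2 change of 0.20 ± 0.93 did not pass. Mx1 had 4.36 and 5.48 CPM in te2, against 10.5 and 14.3 CPM in sham. It fell by 1.32 ± 0.31 on the log2 scale (edgeR adjusted p = 0.00497) with groups apart, and missed the threshold with DESeq2 (adjusted p = 0.104) and without sham replicate 2 (edgeR adjusted p = 0.0585). Ifit3 has a close copy, Ifit3b, and Ifit1 has related copies beside it. How reads that fit more than 1 copy were assigned is not given, so the levels of these genes are uncertain to that extent.

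The surface protein gene Bst2 went the other way. It had 70.0 and 129 CPM in te2, against 43.3 and 55.3 CPM in sham, a mean of 99.6 ± 41.9 CPM in te2 and 49.3 ± 8.47 CPM in sham. It rose by 1.02 ± 0.23 on the log2 scale (edgeR adjusted p = 0.00399), and by 0.49 without te2 replicate 2 (adjusted p = 0.079). Isg15 had 11.0 and 35.1 CPM in te2, against 11.9 and 11.4 CPM in sham. Te2 replicate 1 lies with the sham mice and te2 replicate 2 stands alone at the top, and the log2 change of 1.05 ± 0.39 narrowly missed the threshold (edgeR adjusted p = 0.0532). Without te2 replicate 1 it was 1.61 (edgeR adjusted p = 8.05e-09), and without te2 replicate 2 it was -0.08 (adjusted p = 0.902).

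**Figure D1:**
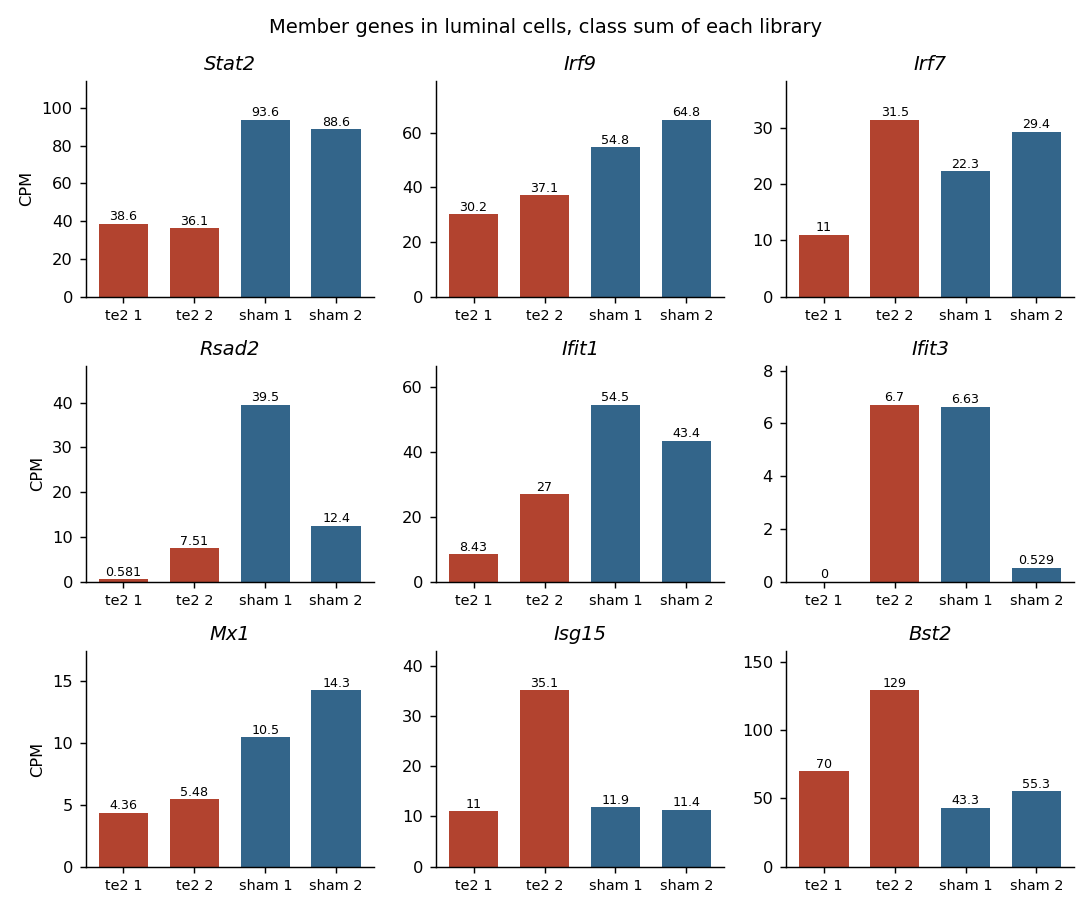
Level of the 9 genes in luminal cells, 1 panel a gene, in CPM scaled by TMM factors, with 1 bar for each te2 and each sham library. Stat2 shows even replicates, at 38.6 and 36.1 CPM in te2 and 93.6 and 88.6 CPM in sham, while Isg15 is high in te2 replicate 2 alone, at 35.1 CPM.

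The 2 te2 mice differed from each other by unequal amounts across the genes. Apart from Rsad2 and Ifit3, which had 2 and 0 UMIs in te2 replicate 1, te2 replicate 2 over te2 replicate 1 was 3.20 for Ifit1, 3.18 for Isg15, 2.85 for Irf7 and 1.85 for Bst2, but 0.935 for Stat2, 1.23 for Irf9 and 1.26 for Mx1. Without te2 replicate 2, 7 of the 9 genes were lower in te2 luminal cells, with Irf7 at a log2 change of -1.25 (edgeR adjusted p = 0.000298) and Ifit3 at -6.51 (edgeR adjusted p = 0.0144) joining the 5 above (the size for Ifit3 depends on the fit, since te2 replicate 1 had 0 UMIs), against 9.24% of all genes lower, and none was higher. In that fit the lone te2 sample is assumed to vary like the sham group. Stat2 and Irf9 passed, lower in te2, under each of the 12 alternative settings run, DESeq2 and each left-out library among them. With 2 mice against 2, an exact permutation test of 1 gene cannot go below a two-sided p of 0.333, so the smaller edgeR p-values rest on a spread pooled over genes.

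For Stat2, the share of luminal cells with a UMI went against its CPM until depth was made equal. Stat2 was seen in 27.6% and 26.2% of luminal cells in te2, against 18.4% (195 of 1057 cells) and 259 of 1292 cells in sham. With each cell thinned to 500 UMIs, the shares were 2.81% (exact 95% binomial interval 1.41 to 4.97, counting error only) and 1.24% (0.455 to 2.67) in te2, against 4.07% (2.96 to 5.44) and 3.95% (2.95 to 5.16) in sham. At equal depth both te2 mice lie below both sham mice, as in the CPM, although the interval of te2 replicate 1 overlaps those of sham. Rsad2 was seen unthinned in 0.510% and 2.06% of luminal cells in te2, against 3.41% and 2.17% in sham. It was seen in 0% (0 of 392 cells) and 0.206% of thinned luminal cells in te2, against 1.70% and 0.0774% in sham, so at this depth only sham replicate 1 shows it in more than a few cells. Unthinned, Ifit1 was seen in 6.63% and 13.0% of luminal cells in te2, against 7.47% and 8.59% in sham. Thinned, it was seen in 0.510% and 1.65% in te2, against 2.55% and 1.63% in sham. At equal depth te2 replicate 2 is thus no lower than sham replicate 2, and the groups overlap, unlike in the CPM.

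Markers of blood cells were low in luminal cells of both groups. Macrophage markers summed to 10 and 8 CPM in te2, against 34 and 17 CPM in sham, and T and NK cell markers to 26 and 30 CPM in te2, against 34 and 40 CPM in sham. B and plasma cell markers summed to 3 and 2 CPM in te2, against 115 and 4 CPM in sham. Siglech, a marker of plasmacytoid dendritic cells, for which Bst2 is a marker too, had 0.30 and 1.42 CPM in te2, against 1.35 and 1.57 CPM in sham. The whole list for these cells (Siglech, Bst2 and Ccr9) summed to 75 and 132 CPM in te2, against 45 and 58 CPM in sham, most of it Bst2. Ccr9 had UMIs in luminal cells of every library, and its own level is not given here. In sums of this kind, fewer cells that express a gene and less RNA of it per cell cannot be told apart.

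Of 116 further interferon pathway genes in the tables, 83 were tested in luminal cells, of which 12 fell and 8 rose in te2, with a median log2 change of -0.14. The share that fell, 14.5%, is near the 14.1% of all genes tested, and the share that rose, 9.64%, stands beside 18% of all genes. They moved both ways within the same roles. Of 46 antiviral and other induced genes, 9 fell and 6 rose. Isg20, an exonuclease that degrades viral RNA, had 120 and 125 CPM in te2, against 47.1 and 33.3 CPM in sham, a log2 change of 1.62 (edgeR adjusted p = 8.19e-06). Ifi35 had 29.3 and 37.3 CPM in te2, against 12.6 and 14.0 CPM in sham. Ifitm2, which blocks virus entry, had 129 and 164 CPM in te2, against 71.6 and 73.8 CPM in sham. Ly6e, a surface protein that limits virus fusion, had 621 and 730 CPM in te2, against 332 and 406 CPM in sham. These 4 rose, with no overlap between groups. Trim34a fell to 8.43 and 10.3 CPM in te2, against 22.7 and 26.2 CPM in sham, and the nuclear body gene Sp100 fell to 8.14 and 9.94 CPM in te2, against 18.9 and 27.8 CPM in sham.

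Other steps of the pathway gave single calls. Among 11 nucleic acid sensors and adaptors, Sting1, the adaptor of cytosolic DNA sensing, rose to 53.8 and 59.1 CPM in te2, against 19.6 and 22.2 CPM in sham (log2 change 1.43, edgeR adjusted p = 2.16e-05). Ddx58, which encodes the RNA sensor RIG-I, fell by 0.63 on the log2 scale (edgeR adjusted p = 0.0345), a call that 5 alternatives lost. Among 9 genes of signal transduction and transcription, the receptor-associated kinase gene Jak1 rose to 132 and 114 CPM in te2, against 66.0 and 59.0 CPM in sham (log2 change 0.98, edgeR adjusted p = 0.000149), and Irf2, a repressor of interferon genes, fell to 146 and 164 CPM in te2, against 228 and 231 CPM in sham (log2 change -0.57), a call lost without te2 replicate 1 (-0.47, edgeR adjusted p = 0.0715). Among 5 genes of the type II interferon group, the guanylate-binding protein gene Gbp5 fell to 26.7 and 17.9 CPM in te2, against 45.7 and 65.1 CPM in sham. None of 6 receptor genes and none of 6 negative regulators and ISG15-conjugating genes passed. No interferon ligand gene was among the pathway genes tested, and ligand counts are not given here.

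In proximal cells, 5 of the 8 genes tested were lower in te2 and none was higher, against 10.3% of 10068 genes passing (4.78% lower and 5.53% higher), but the size of the change rests on 1 sham mouse. Stat2 had 36.8 and 49.9 CPM in te2, against 203 and 63.1 CPM in sham, a log2 change of -1.13 ± 0.32 (edgeR adjusted p = 0.00946). Mx1 had 2.09 and 4.54 CPM in te2, against 59.8 and 8.23 CPM in sham, a change of -2.55 ± 0.79 (edgeR adjusted p = 0.0217), from 5 and 3 sham UMIs. For both, the te2 mice lie below the sham mice. Ifit1 had 19.0 and 34.8 CPM in te2, against 251 and 24.7 CPM in sham (log2 change -1.48 ± 0.42, edgeR adjusted p = 0.0120). Ifit3 had 1.83 and 10.6 CPM in te2, against 335 and 2.74 CPM in sham (-3.78 ± 0.64, edgeR adjusted p = 4.76e-06). Isg15 had 15.4 and 57.5 CPM in te2, against 407 and 24.7 CPM in sham (-1.67 ± 0.44, edgeR adjusted p = 0.00527). In these last 3 genes the groups overlap, since te2 replicate 2 lies above sham replicate 2. For Ifit3 this rests on 1 cell, which held 26 of the 28 UMIs in te2 replicate 2; without the richest cell of each library, Ifit3 by totals was 0.735 CPM in te2 replicate 2, against 2.61 CPM in sham replicate 2.

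Without sham replicate 1, where 2.68% of genes passed as lower, none of the 5 passed, and the log2 changes became -0.54 for Stat2, -1.35 for Mx1, 0.10 for Ifit1, 1.06 for Ifit3 and 0.50 for Isg15. With the sums thinned to the same total, where 4.85% of 1463 genes were lower, no member had counts enough to be tested. In sham replicate 1 the proximal class had 141 UMIs of the 9 genes in 35 cells, and 1 cell held 57 of them (40.4%), with 29 of Isg15, 9 of Ifit1 and 6 of Ifit3. The 2 richest cells held 75.2%. Scaled by totals, Isg15 in that class was 460 CPM with all cells and 71.2 CPM without the richest. With the richest cell left out of every class and library, a setting chosen after the data were seen, Stat2 alone of the 7 members then tested passed in proximal cells, at a log2 change of -1.06 (edgeR adjusted p = 0.0197), against 4.67% of genes lower. Ifit3 was not tested in that setting, Ifit1 and Mx1 had edgeR adjusted p of 0.0512 and 0.0590, and Isg15 changed by 0.33. DESeq2, which called 1.6% of genes lower, called 1 of the 9, Rsad2, which edgeR's filter on low counts left untested. Rsad2 had 21 and 15 UMIs in te2, against 18 and 2 in sham. By totals it was 5.13 and 5.47 CPM in te2, against 243 and 5.14 CPM in sham, so sham replicate 1 alone stands apart. The 18 UMIs of sham replicate 1 came from 2 of its 35 proximal cells.

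**Figure D2:**
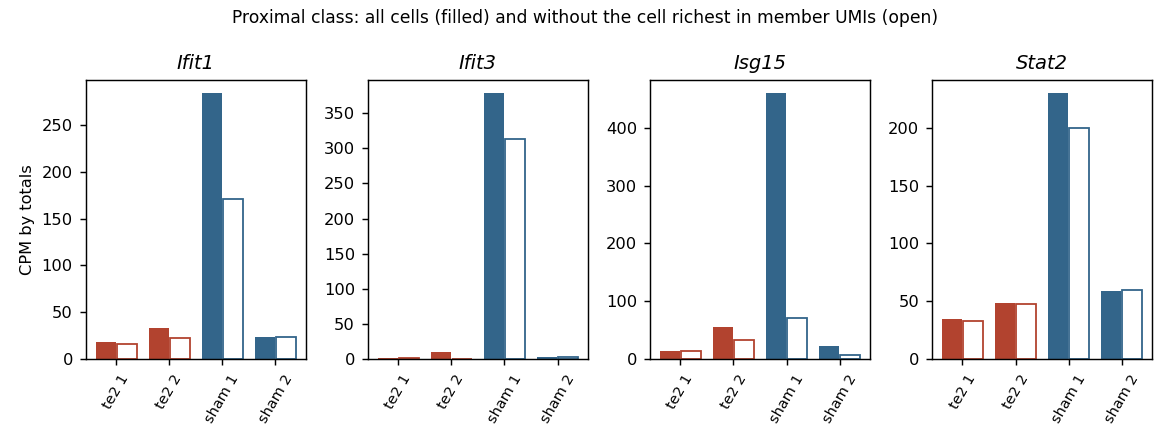
Level of Ifit1, Ifit3, Isg15 and Stat2 in the proximal class in CPM by totals for each te2 and sham library, with all cells (filled) and without the 1 cell richest in UMIs of the 9 genes (open). In sham replicate 1, Isg15 is 460 CPM with all cells and 71.2 CPM without that cell. Ifit3 is 379 CPM with all cells and 313 CPM without it, and all 28 of its UMIs came from 3 cells.

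The other 3 genes tested in proximal cells did not pass. Bst2 had 80.6 and 133 CPM in te2, against 108 and 68.6 CPM in sham (log2 change 0.46 ± 0.29, edgeR adjusted p = 0.350), and Irf7 and Irf9 changed by -0.46 ± 0.47 and 0.05 ± 0.33. Of 80 further pathway genes tested there, 7 fell and 3 rose (8.75% and 3.75%, beside 4.78% and 5.53% of all genes), with a median log2 change of -0.05, against 0.06 over all genes. Isg20 rose as in luminal cells, at 208 and 193 CPM in te2, against 83.7 and 43.9 CPM in sham (1.95, edgeR adjusted p = 1.26e-07), and Sting1 rose to 82.7 and 87.7 CPM in te2, against 23.9 and 49.4 CPM in sham. Ifi27 had 59.2 and 115 CPM in te2, against 0 and 49.4 CPM in sham. Iigp1, an immunity-related GTPase, fell the furthest of the 7, to 1.04 and 0.756 CPM in te2, against 71.8 and 46.6 CPM in sham (-5.71, edgeR adjusted p = 9.5e-12). Ifitm3, a virus entry inhibitor, fell to 168 and 272 CPM in te2, against 431 and 444 CPM in sham. Trim34a (15.6 and 12.9 CPM in te2, 144 and 38.4 CPM in sham) and Slfn2 (8.87 and 16.3 CPM in te2, 108 and 30.2 CPM in sham) fell without overlap. Ifit1bl1 passed as lower, with 1.83 and 8.70 CPM in te2, against 132 and 0 CPM in sham, so its direction comes from sham replicate 1. Of the alternatives run for each, 8 ended the Sting1 call, 6 that of Ifi27, 5 that of Ifit1bl1, 4 each those of Ifitm3 and Slfn2, and 1 each those of Isg20 (without sham replicate 2) and Trim34a (without sham replicate 1).

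In basal cells none of the 5 genes tested passed, against 7.71% of 9132 genes (2.77% lower and 4.94% higher); 2 members had an unadjusted p under 0.05, as did 21.3% of all genes. Stat2 had 34.6 and 28.6 CPM in te2, against 236 and 41.6 CPM in sham (log2 change -1.53 ± 0.51, edgeR adjusted p = 0.0544), where the sham values come from 12 and 7 UMIs. Bst2 had 42 and 83 UMIs in te2, against 0 and 1 in sham (29.1 and 51.7 CPM in te2, 0 and 5.94 CPM in sham; log2 change 3.12 ± 1.08, edgeR adjusted p = 0.0635). Stat2 lies in the direction it had in luminal cells. Bst2 was kept for the test on its te2 counts alone, so its direction here was close to fixed and is not compared with luminal cells. Irf7 had 35.3 and 49.8 CPM in te2, against 19.6 and 83.2 CPM in sham, Irf9 had 23.5 and 29.3 CPM in te2, against 98.2 and 23.8 CPM in sham, and Isg15 had 16.6 and 26.8 CPM in te2, against 0 and 11.9 CPM in sham. Rsad2, Ifit1, Ifit3 and Mx1 were not tested for want of counts. Of 49 further pathway genes, Parp12, an ADP-ribosyltransferase, fell (6.92 and 11.2 CPM in te2, 39.3 and 71.3 CPM in sham) and Isg20 rose (76.1 and 66.0 CPM in te2, 19.6 and 17.8 CPM in sham). Those 2 genes are 2.04% each way, and each call was lost under several alternatives, 3 for Parp12 and 6 for Isg20.

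Fibroblasts gave 6 of the 9 genes enough counts, and none passed with edgeR (DESeq2 gave none of them an adjusted p), against 2.07% of 4450 genes (1.3% lower and 0.764% higher); 2 had an unadjusted p under 0.05, as did 17.6% of all genes. These were Stat2, at 58.9 and 71.8 CPM in te2, against 110 and 128 CPM in sham (log2 change -0.79 ± 0.34, edgeR adjusted p = 0.254), and Irf9, at 53.5 and 45.7 CPM in te2, against 91.6 and 105 CPM in sham (-0.96 ± 0.39, edgeR adjusted p = 0.218). Both lie in the direction they had in luminal cells. Isg15 had 64.2 and 75.1 CPM in te2, against 54.9 and 11.6 CPM in sham. Irf7, Ifit1 and Bst2 overlapped between the groups; Ifit1, for example, had 21.4 and 65.3 CPM in te2, against 68.7 and 0 CPM in sham. None of 36 further pathway genes passed.

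In macrophages only Stat2 and Bst2 had counts enough in the main test, and neither passed, against 3.68% of 2173 genes (1.75% lower and 1.93% higher); Bst2 had an unadjusted p under 0.05, as did 21.8% of all genes. Bst2 had its highest levels here, 567 and 731 CPM in te2, against 288 and 424 CPM in sham (log2 change 0.88 ± 0.36, edgeR adjusted p = 0.169). Stat2 had 136 and 91.4 CPM in te2, against 134 and 125 CPM in sham. For the others the UMIs themselves are the data. The class totals were unequal, at 297852 and 178322 UMIs in te2, against 67385 and 51642 in sham. Isg15 had 23 and 39 UMIs in te2, against 3 and 1 in sham; Ifit3 had 21 and 18 in te2, against 1 and 0 in sham; and Irf7 had 18 and 18 in te2, against 1 and 1 in sham. Scaled by totals, Isg15 was 77.2 and 219 CPM in te2, against 44.5 and 19.4 CPM in sham, and Irf7 was 60.4 and 101 CPM in te2, against 14.8 and 19.4 CPM in sham. With no filter on low counts, Ifit3 (log2 change 3.54) and Isg15 (2.38) were called higher in te2 macrophages, each with an edgeR adjusted p of 0.0323, against 1.14% of genes higher. In te2 replicate 2, 1 macrophage held 11 of the 18 Ifit3 UMIs and 14 of the 39 Isg15 UMIs. In te2 replicate 1, 1 held 8 of the 21 Ifit3 UMIs. Without the richest macrophage of each library, Ifit3 by totals was 44.0 and 40.9 CPM in te2, against 0 and 0 CPM in sham. Isg15 was then 57.6 and 146 CPM in te2, against 30.0 and 19.8 CPM in sham. The cell left out of sham replicate 1 held its only Ifit3 UMI. With all cells, 3 UMIs stand for 44.5 and 58.1 CPM in the sham macrophages, so the Ifit3 contrast lies near the limit of detection. Rsad2 had 77.2 and 67.3 CPM by totals in te2, against 89.0 and 19.4 CPM in sham, with 6 and 1 sham UMIs. Irf9 had 80.6 and 61.7 CPM by totals in te2, against 44.5 and 116 CPM in sham. Ifit1 had 16.8 and 16.8 CPM by totals in te2, against 14.8 and 38.7 CPM in sham. For Irf9 and Ifit1 the te2 values lie between the sham values. Mx1 had 8 and 2 UMIs in te2, against 0 and 0 in sham. Siglech had values in the macrophage class of 36.9 and 44.9 CPM in te2, against 119 and 116 CPM in sham, and luminal markers there summed to 2021 and 6370 CPM in te2, against 28374 and 44731 CPM in sham. None of 37 further pathway genes passed.

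**Figure D3:**
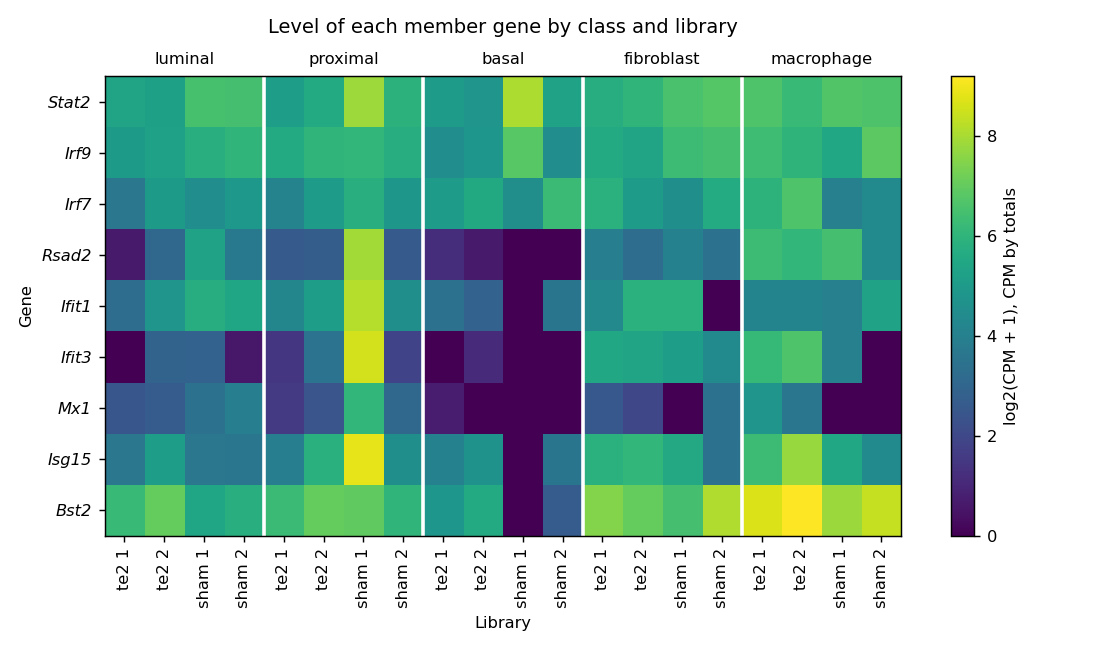
Level of each gene (rows) in every class and library (columns, te2 left of sham in each class), as log2(CPM + 1) by totals. In each library Bst2 is highest in macrophages, at 420 and 583 CPM by totals in te2 and 223 and 329 CPM in sham, and the sham replicate 1 column of the proximal class is high in Isg15, at 460 CPM, and Ifit3, at 379 CPM.

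Stat2 and Irf9 had UMIs in every class of every library. By totals Stat2 ranged over the 5 classes of te2 from 27.0 to 101 CPM and of sham from 38.2 to 265 CPM. Rsad2, Ifit3 and Mx1 were near 0 in basal cells, with at most 2 UMIs a library in te2 and 0 in sham, and had more in macrophages of te2, with 70.5 and 101 CPM of Ifit3 by totals (14.8 and 0 CPM in sham). Most Stat2 UMIs of the sham libraries came from the luminal class (27.5% and 33.3% in te2, 76.1% and 77.7% in sham), as did most Rsad2 UMIs (3.39% and 45.1% in te2, 77.9% and 92.2% in sham). Those shares also follow the number of luminal cells kept.

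Whether the te2 effect of a gene differed between luminal cells and another class was tested in 1 edgeR fit of all classes with the library as a block. Over 8803 genes, 3 differences of these genes passed. The background was 2.02% of genes lower and 2.49% higher for proximal cells, 0.329% and 0.886% for macrophages, 0.5% and 0.795% for basal cells and 1.01% and 1.52% for fibroblasts. In proximal cells, the effect on Isg15 was lower than in luminal cells by -2.68 ± 0.51 on the log2 scale (edgeR adjusted p = 0.000220) and that on Ifit3 by -4.38 ± 0.86 (edgeR adjusted p = 0.000435). Both were lost without sham replicate 1, at -0.46 for Isg15 and -1.46 for Ifit3. That of Ifit3 was also lost without te2 replicate 2, at -0.71, and that of Isg15 without the richest cells, at -0.55. In macrophages, the effect on Rsad2 was higher than in luminal cells by 3.45 ± 0.83 (edgeR adjusted p = 0.0160), which was lost without TMM factors (3.14, edgeR adjusted p = 0.0691), without either sham replicate and without te2 replicate 1. For Stat2 no difference between classes passed; the largest was 1.46 ± 0.56 for macrophages over luminal cells (edgeR adjusted p = 0.274). The fall of Stat2 is thus not shown to differ between classes, nor shown to be equal.

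**Figure D4:**
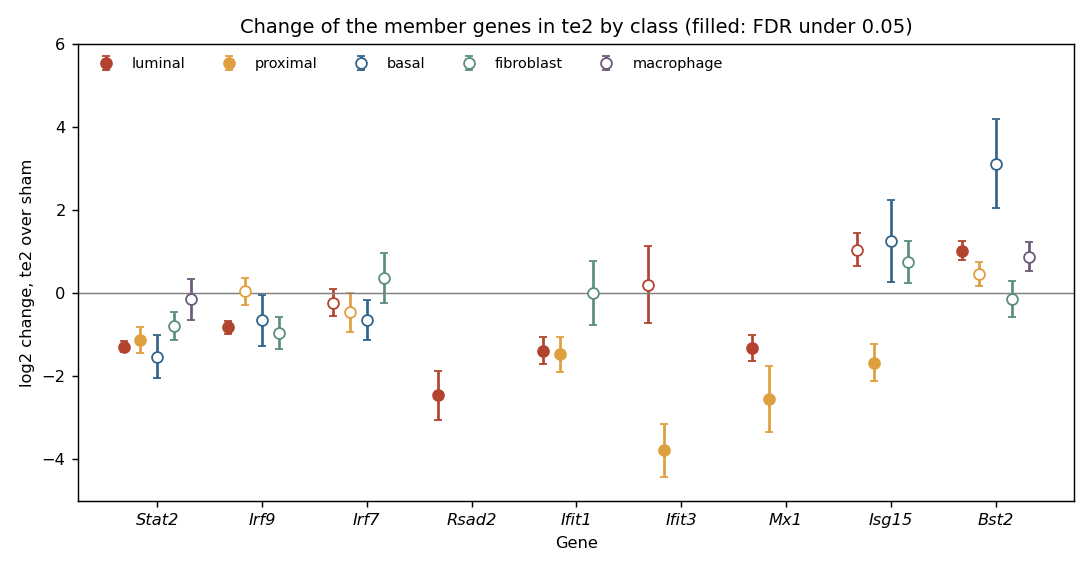
The log2 change of each gene, te2 over sham, in each class where it was tested, with standard errors; filled points have an edgeR adjusted p under 0.05. Stat2 is below 0 in all 5 classes (in macrophages at -0.15 ± 0.50, and above 0 there with DESeq2) and passes in luminal (-1.29) and proximal cells (-1.13), and Bst2 passes in luminal cells only (1.02).

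A few cells had UMIs of most of these genes. Cells with UMIs of 6 or more of the 9 genes numbered 11 and 16 in te2, of 2324 and 2112 kept cells, and 8 and 2 in sham, of 1638 and 2017. Since they were picked by these genes, their shares of each gene's UMIs are a description. They held 11.1% and 62.3% of all Ifit3 UMIs in te2, against 56.5% and 0% in sham, and 20.3% and 45.1% of Rsad2 UMIs in te2, against 29.0% and 3.92% in sham. Of Stat2 they held 4.34% and 5.06% in te2, against 5.40% and 0.464% in sham, and of Irf9 2.44% and 3.64% in te2, against 1.44% and 1.27% in sham. These cells came from several classes: in te2 replicate 2, 5 were luminal, 5 proximal and 2 macrophages, and in sham replicate 1, 4 were luminal and 2 proximal.

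Such cells are deeper than the rest, with a median of 10104 and 9852 UMIs in te2 (3415 and 4002 in its other cells) and 3897 and 9555 in sham (1199 and 1721 in its other cells). They are also richer in the other pathway genes per UMI, with 7054 and 8134 CPM in te2 (4886 and 4898 in its other cells). In sham they had 9910 and 4814 CPM (3191 and 3372 in its other cells). This comparison is not matched by class. In te2 replicate 1, 3 of these cells were macrophages, 3 proximal, 2 basal and 2 luminal. Without the richest cell, pathway genes there summed to 2673 CPM in luminal cells and 10468 CPM in macrophages. The part of class in the difference was not tested. The richest cell, a proximal one of te2 replicate 2 with 21518 UMIs, had UMIs of all 9 genes, 147 in all, with 60 of Isg15, 31 of Ifit1 and 26 of Ifit3, and UMIs of 71 further pathway genes. At the other end, 48.8% and 41.2% of kept cells in te2 and 63.6% and 59.6% in sham had no UMI of any of the 9. With luminal cells thinned to 500 UMIs, 2 or more of the genes were seen together in 0.255% and 0.206% of te2 cells and 1.80% and 1.08% of sham cells, which is 1 and 1 cells in te2 and 19 and 14 in sham.

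**Figure D5:**
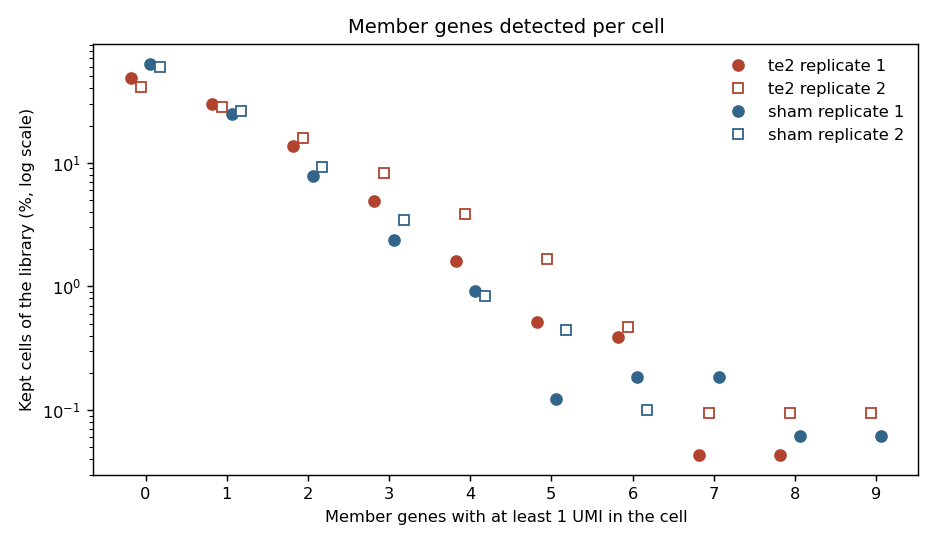
Share of kept cells (%, log scale) by the number of the 9 genes with at least 1 UMI in the cell, for each te2 and sham library, unthinned. Cells with none are 48.8% and 41.2% of te2 and 63.6% and 59.6% of sham, and the tail at 6 or more holds 11 and 16 te2 cells and 8 and 2 sham cells.

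Over the 20 sums of 5 classes in 4 libraries, the genes whose log2(CPM + 5) was most like the mean of the 9 were Oasl2 (Pearson r 0.886), Usp18 (0.845), Rtp4 (0.836), Rdh11 (0.815) and Trim30a (0.796), of 11327 genes with enough UMIs. Usp18 encodes the protease that takes ISG15 off its targets, Oasl2 a relative of the oligoadenylate synthetases and Rdh11 a retinol dehydrogenase. Oasl2, Usp18, Rtp4 and Trim30a are in the list of further pathway genes, as were 10 of the 20 most alike, against 0.768% of all genes compared. Among the 9 themselves, the mean of the other 8 was tracked most closely by Ifit3 (r 0.881), Rsad2 (0.868) and Isg15 (0.833), and least by Irf7 (0.336), Irf9 (0.343) and Stat2 (0.386). Sums of 1 library share an animal and a depth, and the sham replicate 1 proximal class, high in Isg15 and Ifit3, is 1 of the 20 points, so these values are a description.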

How the data were processed

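Per the submitters' processing notes, the authors worked with Seurat 5.0.1, with R 4.3.2, with bustools 0.39.4 and with kallisto 0.46.1, on build GRCm39; the notes give these tools no role. Their deposited values are raw UMI counts, 1 per gene and cell. Per the labels' protocols, 7000 cells a sample were loaded on a 10x 3′ v3.1 kit after cold protease dissociation. The tables keep genes seen in at least 3 cells, and a gene missing from a table was entered as 0. Totals per library were 12259610 and 13134017 UMIs in te2 and 3999690 and 5513275 in sham.

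The 9 genes, the class rule and the pathway list were chosen with earlier results of these data known. Cells with at least 500 UMIs and at most 20% mitochondrial UMIs were kept, among them the 97 doublets called by scrublet in scanpy 1.11.5. Counts were summed per library and class (at least 20 cells in every library) and tested with edgeR 4.0.16 in R 4.3.3 (TMM factors, default filter on low counts, two-sided quasi-likelihood test, Benjamini-Hochberg adjustment, FDR 0.05). Standard errors were derived from each log2 change and its F statistic. DESeq2 1.42.0, other filters and scalings, thinning, stricter class thresholds, a replicate block and leaving out each library were alternatives. The test was checked on simulated data. Named were all 9 genes, in each class and role up to 6 further pathway genes that passed, those of smallest adjusted p, and the 5 genes most alike.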

Additional observations from a re-analysis of the deposited data

Results flagged for a closer look

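For 3 genes, a difference between classes in the te2 effect passed a test of the difference itself, with the library as a block. The te2 effect on Isg15 in proximal cells minus that in luminal cells was -2.68 ± 0.51 on the log2 scale. For Ifit3 the same difference was -4.38 ± 0.86. The te2 effect on Rsad2 in macrophages minus that in luminal cells was 3.45 ± 0.83. Leaving out sham replicate 1 ended all 3 calls, leaving out te2 replicate 2 ended that of Ifit3 (-0.71), and leaving out sham replicate 2 or te2 replicate 1 ended that of Rsad2 (3.32 and 2.50). Leaving out the richest cell of each class and library, chosen after the data were seen, gave -0.55 for Isg15 (edgeR adjusted p = 0.778).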

How the results depend on the processing

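DESeq2 called 1661 genes in luminal, 221 in basal, 33 in macrophage and 251 in proximal cells (3520, 704, 80 and 1038 with edgeR), and of the 9 genes 2 lower in luminal and 1 lower in proximal cells (5 and 5 with edgeR). No filter on low counts called 249 genes in fibroblasts (92 in the main test) and 183 in macrophages, with 1 of the 9 higher in basal cells (Bst2) and 2 in macrophages. Of all genes, 4.94% were higher in basal cells in the main test and 1.14% in macrophages without the filter. Sums thinned to equal totals gave 2 genes in basal, 22 in macrophage and 152 in proximal cells, and 0 of the 9 in proximal cells, where none was tested. Doubled class thresholds gave 414 basal genes and 1 of the 3 class differences; they were not run for proximal cells, where a library fell under 20 cells. In luminal cells 2 genes in place of 1 were higher, Bst2 and Isg15, under no TMM factors, no filter, the replicate block, doubled thresholds and the richest cell left out. Of all luminal genes, 2129, 2359, 1955, 1655 and 1996 were higher in those settings, in that order. Those tested numbered 10976, 17001, 10976, 10271 and 10969. Without the richest cell, 1 gene in place of 5 was lower in proximal cells. Without doublets, 1 of the 9, Stat2, was lower in basal cells, where 2.77% of genes were lower in the main test.

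The replicate numbers were not taken as pairs of animals. The deviations of same-numbered libraries correlated at 0.0117 in luminal, -0.0216 in basal, -0.0536 in fibroblast, 0.0054 in macrophage and -0.0058 in proximal cells. With 1 difference per group, such values cannot show whether same-numbered animals were handled together. With the replicate block, 442 basal genes (of 9132 tested), 26 macrophage and 614 proximal genes were called, and 1 of the 9, Stat2, in basal cells.

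Leaving out 1 library at a time gave 145 to 369 genes in basal, 107 to 211 in fibroblast, 53 to 154 in macrophage, 234 to 678 in proximal and 2498 to 3235 in luminal cells. Which of the 9 genes passed also moved with the library left out in luminal, basal and proximal cells. So did the number of class differences that passed. Log2 changes that turned ranged from -1.25 to 0.29 (Irf7), -6.51 to 2.76 (Ifit3) and -0.080 to 1.61 (Isg15) in luminal cells. In basal cells they ranged from -0.92 to 1.20 (Irf7) and -1.80 to 0.19 (Irf9), and in fibroblasts from -0.26 to 0.81 (Irf7), -0.99 to 6.19 (Ifit1) and -0.93 to 0.69 (Bst2). Stat2 ranged from -0.10 to 0.026 in macrophages. In proximal cells they ranged from -0.13 to 0.25 (Irf9), -3.21 to 0.10 (Ifit1), -5.89 to 1.06 (Ifit3), -3.51 to 0.50 (Isg15) and -4.70 to 6.49 (Ifit1bl1).

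Other changes of sign were 0.021 for luminal Irf7 and -0.13 for fibroblast Ifit1 under doubled thresholds; -0.042 (DESeq2) and -0.28 (thinned) for luminal Ifit3; 0.023 (DESeq2) and 0.21 (no filter) for macrophage Stat2; and, without the richest cell, -0.25 for Ifit1 and 0.42 for Bst2 in fibroblasts and 0.19 for Irf7 and 0.33 for Isg15 in proximal cells. None of these passed except where named above, and the causes were not tested. Of 569 values of single genes under alternatives, 456 kept their direction and their side of the threshold, 71 lost it, 13 gained it and 29 changed sign. Low sham depth limits basal and macrophage cells most, where each member other than Bst2 had at most 14 sham UMIs a library.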
